A study of Mus musculus with 3 samples.

Results

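Of 10 endothelial marker genes, Emcn, Pecam1 and Eng read at least 2-fold higher on the beta cell array than on either ductal array, and Cd34 read at least 2-fold lower. None of the 10 was 2-fold apart between Fbw7-deleted and wild-type ductal cells, and 6 held exactly the same value on both ductal arrays. Over all 19938 genes, 7.41% read 2-fold or more above wild-type and 6.05% above deleted ductal cells, and 14.5% and 12.9% read that far below. Between the ductal arrays 1.69% of all genes were 2-fold apart and 59.1% were identical. The genes were Pecam1, Emcn, Cd34, Esam, Kdr, Cdh5, Plvap, Flt1, Tek and Eng, chosen by name as markers of the cells that line blood vessels. All 10 were found among the genes with a probe set of their own, each by 1 probe set.

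The study measured RNA of 3 pools of sorted pancreatic cells of C57BL/6 mice older than 6 weeks, with 1 array for each pool. Beta cells came from 3 untreated mice of genotype Fbw7 +/+; MIP-GFP, whose beta cells carry GFP. Ductal cells came from 6 Fbw7 +/+ mice (wild-type) and from 6 Fbw7 F/F mice (deleted). Both ductal groups, controls included, carried Ck19-CreERT and the R26-LSL-YFP reporter and received tamoxifen on 5 days, with cells taken 7 days after the last injection. Recombination and the YFP label are limited to cells in which the Ck19 promoter was active, and the effects of cell type, reporter and tamoxifen cannot be told apart between the beta cell array and the ductal arrays. With 1 array a group there is no spread between replicates, so no difference below has a replicate check, no p-value is given, and the number of arrays limits the precision.

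Endothelial cells form the inner wall of vessels, and their growth is driven by VEGF and angiopoietin ligands acting on receptor tyrosine kinases. They are held together by cadherins and immunoglobulin-like adhesion proteins and covered by sialomucins, which are heavily glycosylated surface proteins. Islets are supplied by a dense bed of fenestrated capillaries, and vessels also run through exocrine tissue and around ducts. Several of these markers are known outside endothelium too: Pecam1 on leukocytes and platelets, and Cd34 on blood progenitors and on stromal cells.

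Promoters are shown for the sialomucin genes Emcn and Cd34, whose levels went opposite ways between the arrays, and for Eng, which went with Emcn. RefSeq (GRCm38.p6) promoters matched 6 of the 10 genes. Each line gives the 250 bases before the annotated start, 5′ to 3′ on the gene's strand, at chr3:137340828-137341077 (+) for Emcn, chr1:194938571-194938820 (+) for Cd34 and chr2:32646345-32646594 (+) for Eng. Capitals mark GGAA or its reverse complement TTCC, the core letters bound by ETS transcription factors, a family that includes endothelial regulators.
Emcn: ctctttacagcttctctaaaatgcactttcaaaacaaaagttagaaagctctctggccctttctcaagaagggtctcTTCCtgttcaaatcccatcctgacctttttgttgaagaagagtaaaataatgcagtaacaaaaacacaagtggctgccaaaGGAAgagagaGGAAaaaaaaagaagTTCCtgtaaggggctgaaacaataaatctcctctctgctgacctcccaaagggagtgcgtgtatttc
Cd34: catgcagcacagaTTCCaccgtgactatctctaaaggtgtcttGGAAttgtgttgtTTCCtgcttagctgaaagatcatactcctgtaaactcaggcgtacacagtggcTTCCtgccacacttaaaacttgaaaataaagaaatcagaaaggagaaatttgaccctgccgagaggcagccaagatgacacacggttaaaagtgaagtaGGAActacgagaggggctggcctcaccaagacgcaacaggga
Eng: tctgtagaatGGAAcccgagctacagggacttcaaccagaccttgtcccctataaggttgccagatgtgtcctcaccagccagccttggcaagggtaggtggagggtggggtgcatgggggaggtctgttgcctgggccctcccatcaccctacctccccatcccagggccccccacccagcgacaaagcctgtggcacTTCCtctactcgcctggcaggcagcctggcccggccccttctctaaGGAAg

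GGAA occurred 4 times in the Emcn window, 5 times in Cd34 and 3 times in Eng, on either strand. At least 1 match was present in 93.4% of all 32851 RefSeq windows of this length, with a median of 3 matches. The longer GGAAGT, which contains GGAA, was absent from the Emcn and Cd34 windows and occurred 1 time each in Eng, Kdr and Flt1, against 19.7% of all windows with at least 1. The GATA motif AGATAA, searched on both strands, was in none of the 6 windows and in 9.99% of all windows. GC content was 40.8% for Emcn, 46.4% for Cd34 and 62.4% for Eng, against a median of 52.4% over all windows. GGAA was present upstream of both Emcn and Cd34, as it was in 93.4% of all windows. These matches describe letters, not binding.

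Values are log2 intensities, and a difference of log2 1 is 2-fold. As a level floor, the median over all probe sets that name 1 gene was taken for each array: 5.30 for beta cells, 5.23 for wild-type and 5.24 for deleted ductal cells. Of 10 beta cell markers 8 were above the floor on the beta cell array, although Pdx1 (5.14) and G6pc2 (4.83) were not, and 4 were above it on each ductal array. Of 8 measured duct markers 6 were above it on the beta cell array, 6 on the wild-type and 7 on the deleted ductal array, and Cftr, the duct chloride channel gene, was below it on both (4.95 and 5.13). Pdx1, G6pc2 and Cftr are named here for their levels. All 10 mesothelial markers, 1 of which is the duct keratin gene Krt19, were above the floor on both ductal arrays, with medians of 10.15 and 10.06. The 7 measured acinar genes had medians of 12.04, 9.92 and 11.60 on the beta, wild-type and deleted arrays, so acinar signal was high in all 3 pools. A single value was often held by many probe sets of an array. A value shared with at least 9 others, that is, held by 10 or more, was found for 22.0% of single-gene probe sets on the beta cell array, 38.0% on the wild-type ductal and 40.8% on the deleted ductal array. Of the 10 endothelial genes, 2, 5 and 5 held such a value.

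On the beta cell array 9 of the 10 genes were above the floor, and Tek was the exception. On each ductal array the same 5 genes were above it: Cd34, Esam, Kdr, Plvap and Flt1. The median level of the 10 genes was 6.46 in beta cells, against 5.45 in wild-type and 5.45 in Fbw7-deleted ductal cells. Summed on the linear scale, the 10 genes gave an intensity of 855 on the beta cell array, 1711 on the wild-type and 1122 on the deleted ductal array. Without Cd34 the sums were 736, 370 and 379, so the order of the arrays depended on that gene. In pooled cells, fewer cells of a type and less RNA per cell cannot be told apart.

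**Figure D1:**
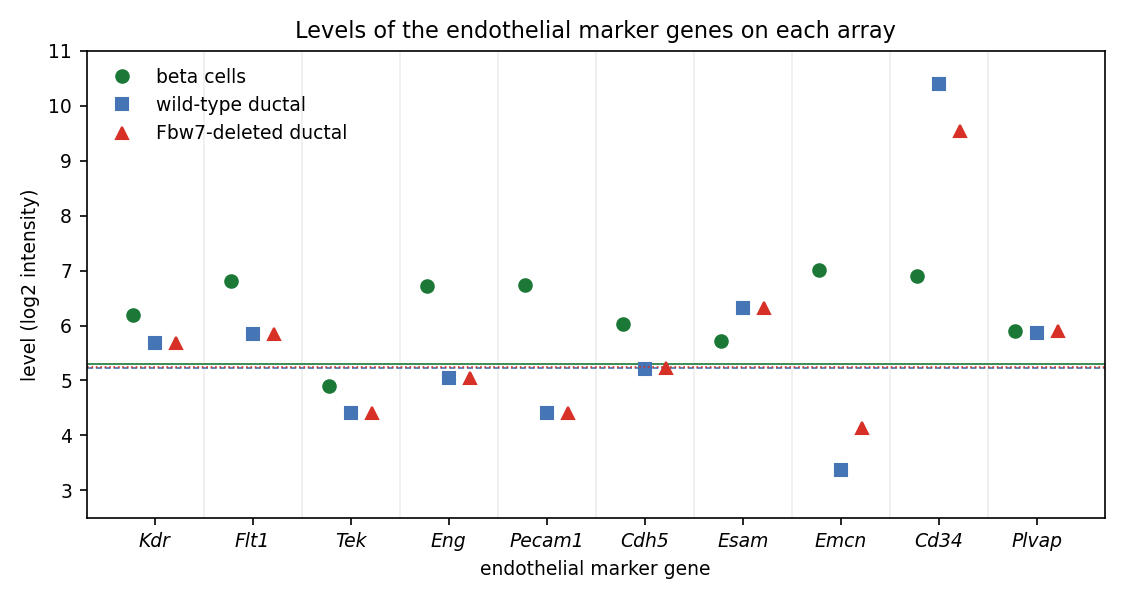
Level in log2 intensity (vertical axis) of each endothelial marker gene (horizontal axis) on the beta cell (circles), wild-type ductal (squares) and Fbw7-deleted ductal array (triangles); horizontal lines are the level floors of the 3 arrays, and each point is 1 array. Emcn, Pecam1 and Eng lie above the floor in beta cells and below it on both ductal arrays, while Cd34 is higher on both ductal arrays.

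Among the receptors, the VEGF receptor gene Kdr, which encodes the main signalling receptor of VEGF in endothelium, read 6.20 in beta cells and 5.69 on both ductal arrays. The difference was 0.51, or 1.43-fold. The ductal value of Kdr was held by 23 probe sets on the wild-type and 14 on the deleted ductal array. Flt1, a VEGF receptor that also acts as a trap for the ligand, read 6.82 in beta cells and 5.84 on both ductal arrays, a difference of 0.98 (1.97-fold). Flt1 thus lay just under the 2-fold line, and passed it after quantile normalization (1.57 against either ductal array) and with a loess trend removed (1.34 against wild-type and 1.28 against deleted cells). Its beta cell value was a repeated one, held by 25 probe sets of that array. Tek, the angiopoietin receptor gene, read 4.91 in beta cells and 4.40 on both ductal arrays, below the floor throughout, so no fold is given. Eng, the TGF-beta co-receptor endoglin, read 6.72 in beta cells and 5.05 on both ductal arrays, where it was below the floor. Its difference was 1.68 as measured, and it was at least 2.81-fold higher than in wild-type and at least 2.80-fold higher than in deleted ductal cells against their floors.

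Among the adhesion genes, Pecam1, an immunoglobulin-like protein of endothelial junctions, read 6.73 in beta cells and 4.40 on both ductal arrays. The difference was 2.33, and the level was at least 2.83-fold above wild-type and at least 2.82-fold above deleted ductal cells against the floor. The 4.40 of Pecam1 was also the value of Tek and was held by 120 probe sets on the wild-type and 138 on the deleted ductal array, while its beta cell value was held by no other probe set. Likewise the ductal value of Eng was held by 77 and 95 probe sets. Cdh5, the cadherin of endothelial junctions, read 6.04 in beta cells and 5.22 on both ductal arrays, just below their floors. It was 0.82 and 0.81 higher in beta cells, at least 1.74-fold against either floor. Esam, a tight-junction adhesion protein of endothelium and platelets, went the other way, with 5.71 in beta cells and 6.33 on both ductal arrays (-0.61, or 1.53-fold lower in beta cells).

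The sialomucin genes Emcn and Cd34 differed in opposite directions. Emcn read 7.02 in beta cells, against 3.37 in wild-type and 4.14 in Fbw7-deleted ductal cells. The wild-type value was held by 81 probe sets of that array. Both ductal levels were below the floor, so the measured differences of 3.64 and 2.88 became 1.78 and 1.78 against it, at least 3.44-fold and at least 3.43-fold. Cd34 read 6.90 in beta cells, against 10.39 in wild-type and 9.54 in Fbw7-deleted ductal cells, above the floor on all 3 arrays. It was 11.2-fold lower in beta cells than in wild-type (-3.49) and 6.22-fold lower than in deleted ductal cells (-2.64). With the loess trend removed the Cd34 differences were -1.96 and -1.44, and against deleted cells it was -1.77 after quantile normalization. Plvap, which forms the diaphragms of fenestrated capillaries, read 5.90 in beta cells, against 5.86 in wild-type and 5.90 in Fbw7-deleted ductal cells. The Plvap value of beta and deleted ductal cells was identical and was held by 108 and 78 probe sets. Its sign against wild-type cells turned from 0.05 to -0.16 with each array centred on its median.

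In the comparison of beta with wild-type ductal cells, 8 of the 10 genes read higher, 2 lower and 0 identical in beta cells, against 45.1%, 31.8% and 23% of all 19938 genes. Of the 10, 3 were at least 2-fold higher (Emcn, Pecam1 and Eng) and 1 at least 2-fold lower (Cd34). Over all genes, 7.41% read higher by 2-fold or more and 14.5% lower. Of the 10 genes, 9 passed the floor, the rule that the higher of both levels lies above the floor of its array. Over the 11139 genes that passed it, 6.37% were 2-fold higher and 25.8% lower. The median difference of the 10 genes was 0.67, against 0 over all genes. Cd34 was above the floor on both arrays, and 1.60% of the genes that passed had a lower difference. Emcn, Pecam1 and Eng passed through the beta cell array alone, so their ranks are not given.

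Against deleted ductal cells, which shares the beta cell array with the comparison above, 7 of the 10 genes read higher, 2 lower and 1 identical, against 44.4%, 30.6% and 25% of all genes. Emcn, Pecam1 and Eng were again the 3 that were at least 2-fold higher, and Cd34 the 1 at least 2-fold lower. Over all 19938 genes 6.05% were 2-fold higher and 12.9% lower, and over the 11095 that passed the floor 5.13% and 23%. The median difference of the 10 genes was 0.66, against 0 over all genes. The split of all called genes moved with the scaling. Against wild-type cells 19.8% of genes 2-fold apart were higher in beta cells as deposited, 37.3% after quantile normalization and 35.0% with the loess trend removed; against deleted cells the shares were 18.2%, 35.8% and 31.2%. The median over genes that passed the floor was -0.11 against wild-type cells and moved by 0.20, -0.20 and 0.14 with quantile normalization, centring and the loess trend, so differences of single genes hold relative to such a shift.

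**Figure D2:**
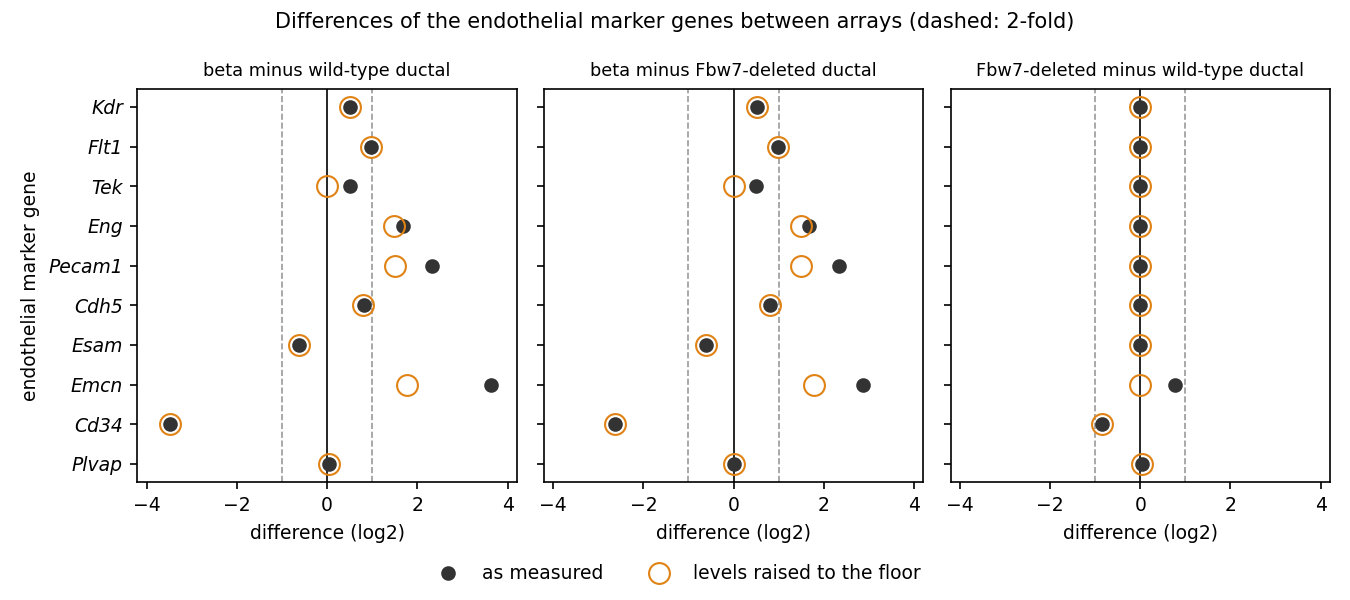
Difference in log2 (horizontal axis) of each endothelial marker gene (vertical axis) in 3 comparisons of arrays, as measured (filled points) and after raising any level under the floor to the floor (open circles); dashed lines mark 2-fold. Emcn shrinks from 3.64 to 1.78 against wild-type ductal cells when its ductal level is raised to the floor, and Cd34 stays at -3.49.

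**Figure D3:**
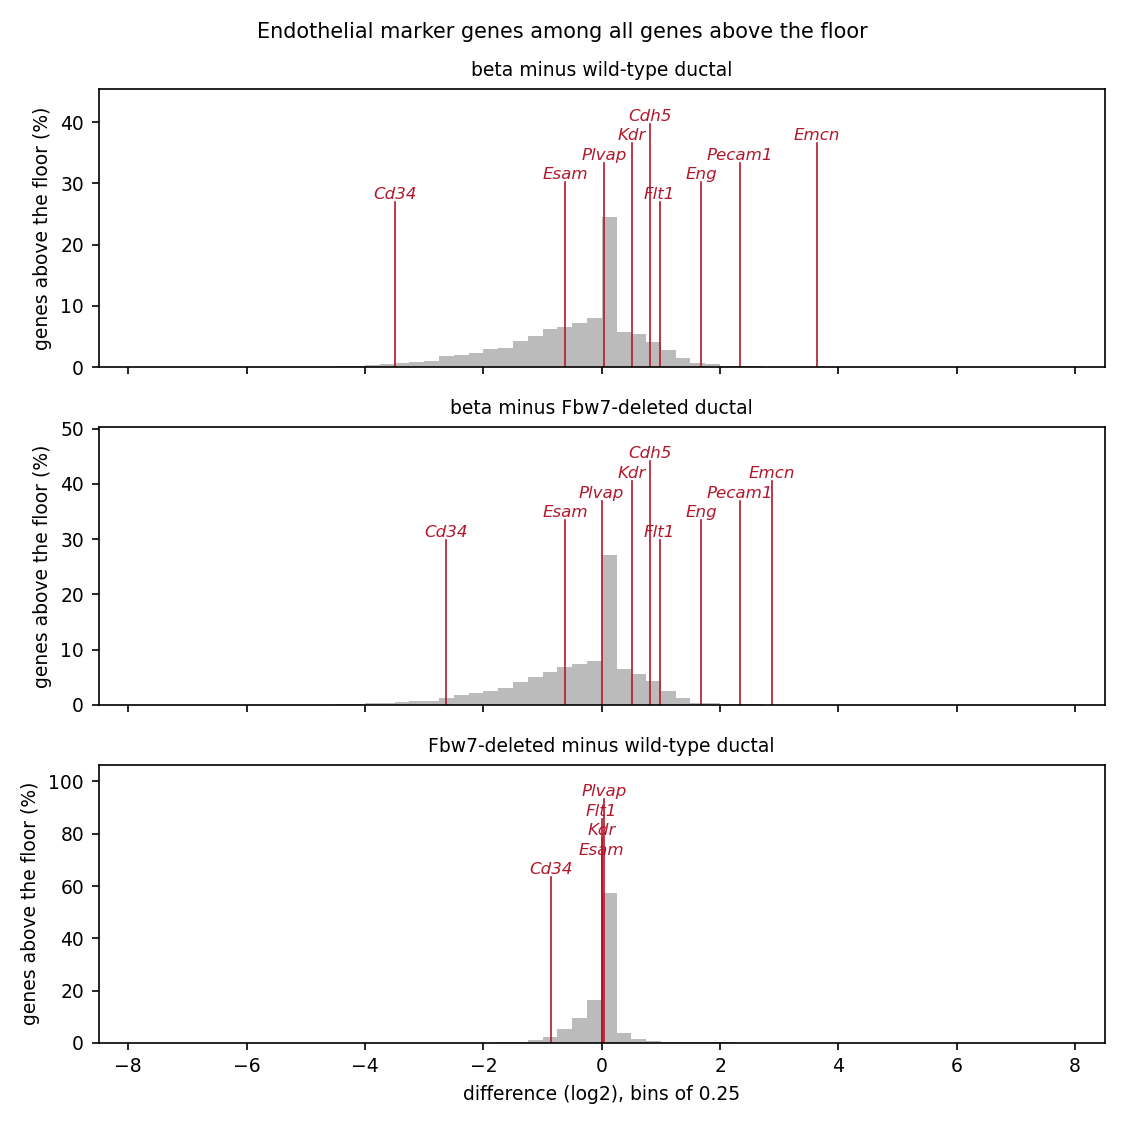
Percent of genes that passed the floor (vertical axis) by difference in log2 (horizontal axis, bins of 0.25, exact ties in the bin that starts at 0) for the 3 comparisons, with red lines at the endothelial marker genes that passed. Line heights carry no value. Cd34 lies to the left of most genes in both beta cell comparisons. Emcn, Pecam1 and Eng, with ductal levels below the floor, passed through the beta cell array alone, so their places are not read as ranks. Between the ductal arrays 3 of 5 genes lie at 0.

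Between the ductal arrays the question is what the loss of Fbw7, a subunit of a ubiquitin ligase, does to transcript levels. Pecam1, Eng, Tek, Kdr, Flt1 and Esam held the same value on both arrays, as did 59.1% of all 19938 genes. Plvap differed by 0.05 and Cdh5 by 0.0041. Emcn was 0.77 higher in deleted cells, but both of its levels were below the floor. Cd34 was 1.80-fold lower in deleted cells, at 9.54 against 10.39 (-0.85). None of the 10 genes was 2-fold apart, against 1.69% of all genes; 5 of the 10 passed the floor, where the share was 3.25% of 10035 genes. Of the genes that passed, 2.89% had a lower difference than Cd34.

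Other endothelial genes were listed separately by name, and 25 of 26 were measured. Of these, 15 were above the floor on the beta cell array, 7 on the wild-type and 6 on the deleted ductal array. Against wild-type cells 19 of the 25 read higher in beta cells, 2 lower and 4 identical, against 45.1%, 31.8% and 23% of all 19938 genes. This count includes genes below the floor on both arrays. Without a floor 7 of the 25 were 2-fold higher or more, against 7.41% of all genes, and 0 were lower by that much. Of the 15 that passed the floor 6 were 2-fold higher, against 6.37% of all genes that passed, and several did so through the beta cell array alone. With levels raised to the floor the 6 became 2, and 327 of all 11139 genes that passed were 2-fold higher. Adgrl4, an adhesion receptor of vessels, read 5.86 in beta cells, against 4.22 in wild-type and 4.07 in Fbw7-deleted ductal cells. Mmrn2, an endothelial matrix protein, read 5.53 in beta cells and 4.02 on both ductal arrays. Ecscr, an endothelial surface protein, went the other way with 6.89, 7.35 and 7.30, while the sphingosine phosphate receptor gene S1pr1 read 5.31, 5.52 and 4.78, so that beta cells lay between the ductal arrays. Erg, an ETS factor of endothelium, and Nos3, the endothelial nitric oxide synthase, each held 1 value on all 3 arrays (4.92 and 4.25), below the floor. Erg and Nos3 are named here for these values. Between the ductal arrays 0 of the 7 that passed the floor were 2-fold apart, against 3.25% of all 10035 genes that passed.

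Ligands and other receptors of the same pathways were listed by name. Of 11 genes of the VEGF and angiopoietin axis outside the 10 markers, 7 passed the floor against wild-type cells. Of the 7, 0 were 2-fold higher in beta cells, against 6.37% of all genes that passed. The 2 that were lower are a share near the 25.8% lower over all genes that passed. After quantile normalization 2 were higher and 2 lower, against 1192 and 2004 of all 11226 genes that passed. Vegfa, the main VEGF ligand of blood vessels, read 8.53 in beta cells, against 7.57 in wild-type and 7.60 in Fbw7-deleted ductal cells (0.96 and 0.93). Vegfd and Vegfc, ligands known for lymphatic vessels, were lower in beta cells: Vegfd read 6.14, 8.25 and 7.56 and Vegfc 4.94, 6.86 and 6.25. Nrp1, a VEGF co-receptor gene, read 5.70 in beta cells and 5.03 and 4.96 on the ductal arrays, both below the floor. The angiopoietin genes Angpt1 and Angpt2 were below the floor on all 3 arrays, as was Tek; they are named here for that.

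Of 18 genes around endoglin in the TGF-beta axis, 16 passed the floor against wild-type cells, of which 0 were 2-fold higher in beta cells and 6 lower, against 6.37% and 25.8% of all genes that passed. The 6 became 4 after quantile normalization or with the loess trend removed, and 9 with each array centred. Over all genes that passed, 2004 of 11226, 1808 of 11139 and 3441 of 11194 were lower under these settings. The BMP receptor gene Bmpr2 read 5.54, 8.66 and 8.11 in beta, wild-type and deleted ductal cells, and Tgfbr3, another TGF-beta co-receptor, 6.04, 9.03 and 8.82. Smad6, an inhibitor of BMP signalling, had the most positive difference at 0.36. Among junction and adhesion partners 1 of 11 was at least 2-fold higher in beta cells, the endothelial claudin gene Cldn5 (5.81 against 4.58 and 4.68), and its difference was 0.58 against the wild-type floor. Of the same 11, 6 were at least 2-fold lower, where 6.37% of all genes that passed were higher and 25.8% lower, among them the leukocyte adhesion gene Vcam1 (5.40, 10.09 and 9.47) and F11r, an epithelial and endothelial junction gene (5.23, 9.28 and 9.32). After quantile normalization 3 of the 12 partners that then passed were 2-fold lower, against 2004 of all 11226 genes. Of 18 endothelial transcription factor genes 14 passed the floor against wild-type cells. As measured 2 were at least 2-fold higher, Lyl1 (6.26 against 5.13 on both ductal arrays) and Sox7 (5.48 against 4.43 and 4.62). Klf4 (6.94, 8.51 and 8.43) was the 1 lower, where 6.37% of all genes that passed were higher and 25.8% lower. The ductal levels of Lyl1 and Sox7 were below the floor, and against the wild-type floor their differences were 1.02 and 0.25. Only Lyl1 thus stayed 2-fold higher. With each array centred, 0 were higher and 2 lower and the median difference was -0.13, against 0.08 as deposited. Of all 11194 genes that then passed, 448 were higher and 3441 lower. Quantile normalization moved the list the other way, with 2 of the 14 higher, 0 lower and a median of 0.62. Of all 11226 genes that passed there, 1192 were higher and 2004 lower. So did the loess trend, with 1 higher, 0 lower and a median of 0.53, against 972 and 1808 of all 11139 genes.

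Markers of other cells that share these genes also differed between the arrays. Of 18 leukocyte and platelet genes, 14 were above the floor on the beta cell array, 5 on the wild-type and 6 on the deleted ductal array, and their summed linear intensity was 1633, 990 and 747. The leukocyte surface gene Ptprc, named here after its values were seen, read 5.88 in beta cells and 3.72 and 3.995 on the ductal arrays, where it was below the floor. Lyz2, a myeloid lysozyme, read 6.73, 3.02 and 3.08, and Cd52, a lymphocyte surface protein, 7.62, 4.30 and 4.37. Cd74, the class II invariant chain, went the other way with 7.53, 8.53 and 7.77, and the platelet integrin gene Itga2b read 5.98 on all 3 arrays. Against wild-type cells 7 of the 14 that passed the floor were 2-fold higher in beta cells and 0 lower. Of all genes that passed, 6.37% and 25.8% were. Most of the 14 passed through the beta cell array alone, which favours higher over lower differences. Without a floor 10 of the 18 were 2-fold higher and 0 lower, against 7.41% and 14.5% of all genes. With levels raised to the floor 4 were higher, against 327 of all 11139 genes that passed. The higher levels in beta cells are the direction of Pecam1, and the part of leukocyte RNA in the Pecam1 level was not tested.

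Of 12 mesenchymal genes 11 were above the floor on each array, with medians of 6.79 in beta cells, against 9.14 in wild-type and 7.94 in Fbw7-deleted ductal cells and summed intensities of 2243, 11206 and 7013. Against wild-type cells 9 of 12 were at least 2-fold lower in beta cells, the direction of Cd34, and 1 was higher, where 25.8% and 6.37% of all genes that passed were. With the loess trend removed the 9 became 6, with a median of -0.85 in place of -2.25, while 1808 of all 11139 genes that passed were lower. Against deleted cells 9 of the 12 were lower as deposited, where 23% of all genes that passed were. After quantile normalization 5 were lower, against 1883 of all 11177 genes that passed. With the loess trend removed 2 of the 12 were lower, a share near the 1730 of 11095 over all genes that passed. Pdgfra, a growth factor receptor of stromal cells, read 5.14, 9.71 and 7.73, and Col1a2, a collagen gene, 6.48, 10.88 and 9.55. Dpt, the matrix protein gene dermatopontin, went the other way with 7.21, 4.40 and 3.77. Between the ductal arrays 4 of 11 mesenchymal genes were at least 2-fold lower in deleted cells, against 182 of all 10035 genes that passed the floor. The median of the 11 was -0.72, against 0 over all genes, and Cd34 was at -0.85. The part of mesenchymal RNA in the Cd34 level was not tested.

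Pericytes and lymphatic vessels gave mixed values. Of 12 pericyte and smooth muscle genes 7 were above the floor in beta cells and 6 on each ductal array, with summed intensities of 489, 607 and 504. Against wild-type cells 0 of 8 that passed the floor were 2-fold higher and 1 was lower, the actin gene Acta2 (5.63, 7.11 and 6.65), against 6.37% and 25.8% of all genes that passed. Of 6 measured lymphatic genes, 3, 2 and 3 were above the floor. Lyve1, a hyaluronan receptor of lymphatic vessels and some macrophages, read 6.01 in beta cells and 4.46 and 4.62 on the ductal arrays. Pdpn, a mucin-like protein also made by mesothelium, read 5.84, 10.17 and 10.14, and Prox1, a transcription factor of lymphatic endothelium and ducts, 4.99, 5.01 and 8.08.

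**Figure D4:**
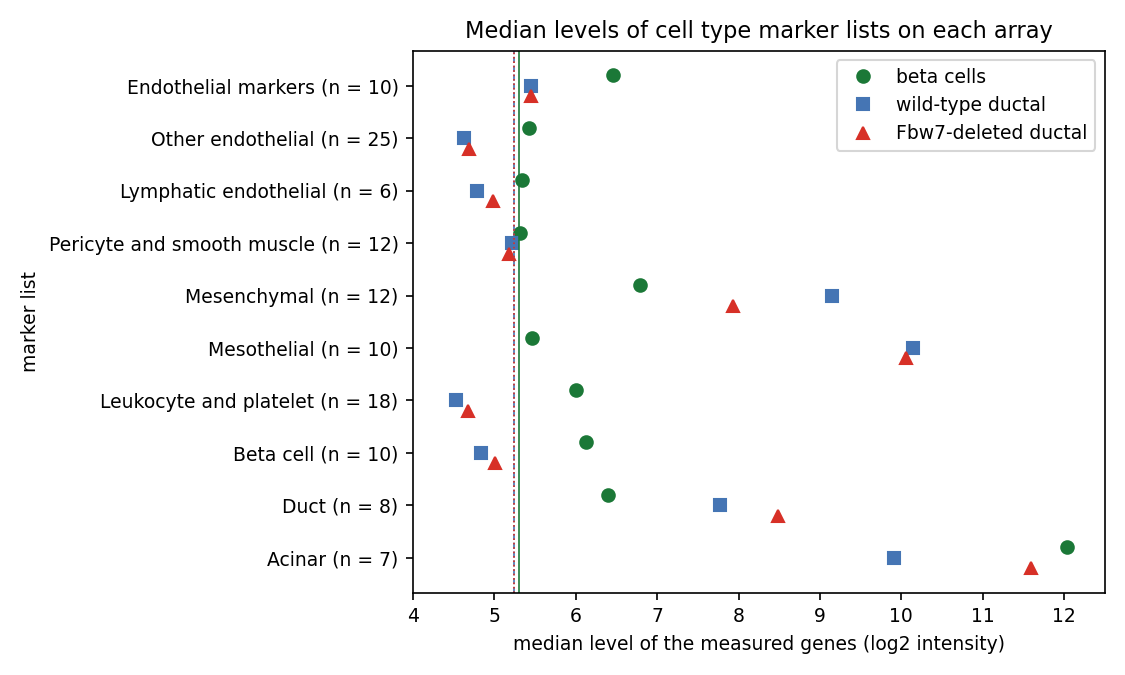
Median level in log2 intensity (horizontal axis) of the measured genes of each marker list (vertical axis, n is the number of genes) on the beta cell (circles), wild-type ductal (squares) and Fbw7-deleted ductal array (triangles); vertical lines are the floors. The endothelial markers have medians of 6.46, 5.45 and 5.45, leukocyte genes are likewise highest in beta cells, and mesenchymal and mesothelial genes are higher on the ductal arrays.

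The profiles of Emcn and Cd34 were compared with 10721 genes by the distance between levels on the 3 arrays, after each gene's mean was subtracted. Nearest to Emcn were Iqca (distance log2 0.19), Tmed11 (0.21) and Abcc8 (0.45), a subunit of the beta cell potassium channel. Nearest to Cd34 were the chaperonin gene Cct8 (0.028), Tmem255a (0.033) and Pon3 (0.058). Within a distance of log2 1 lay 46 genes for Emcn and 880 for Cd34. Both ductal levels of Emcn, Iqca, Tmed11 and Abcc8 were below the floor, as were the beta cell levels of Cct8, Tmem255a and Pon3. These distances therefore rest in part on levels near background. With 3 arrays such nearness is a description only.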

How the data were processed

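The authors deposited 1 log2 intensity per probe set on each array, computed with RMA (background correction, normalization and summary of probes) per the submitters' processing notes. Neither the RMA version nor the set of arrays normalized jointly is given in the sources used here. Of 35556 probe sets 21789 named 1 gene in the platform annotation, 1621 several and 12146 none; a RefSeq gene ID (GRCm38.p6) was found for 21698 of the first. For a gene with several, the probe set with the highest mean was used. The file holds no coordinates. A gene passed the floor in a comparison when the larger of its levels exceeded the floor of that array. Called means at least 2-fold apart. Folds with 1 level below the floor are given against the floor as "at least".

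All 10 marker genes are named, with up to 4 genes of each other list (the 2 highest and 2 lowest differences); others are marked as chosen after their values were seen, or for their level. The genes, lists and floor were chosen with earlier results of these data known. Lists overlap, with 6 of the 26 other endothelial genes in another list. The floor was also dropped or set at the 75th percentile, and the other alternatives tried were folds of 1.5 and 4, quantile normalization, centring, a loess trend (span 0.3), the mean of probe sets and levels raised to the floor. Leaving out values held by another probe set was chosen after seeing the data. The steps were tested on simulated arrays, with changes set only in genes above the floor on the arrays compared. Noise was added to every value, so repeated values were not simulated. Tables were handled in Python 3.11.15 (pandas 2.3.3, numpy 2.4.6), the trend was fitted with statsmodels 0.14.6, and figures were drawn with matplotlib 3.10.9.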

Additional observations from a re-analysis of the deposited data

How the results depend on the processing

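No paired analysis was possible because each group is 1 array, and no array could be left out. At 1.5-fold in place of 2-fold, 7 endothelial markers were called against wild-type and 7 against deleted ductal cells in place of 4 each. Of all genes that passed the floor, 50.1% and 46.5% were called in place of 32.2% and 28.1%. Between the ductal arrays 1 of the 5 markers that passed (Cd34) was called in place of 0, against 10.1% of all genes that passed. After quantile normalization 6 were called in each beta cell comparison, Flt1 and Cdh5 being added, and with the loess trend 5. With the floor at the 75th percentile only Cd34 passed between the ductal arrays, at -0.85. Leaving out genes whose value on either array was held by another probe set left 3 markers in each comparison. Then 1 marker was called against wild-type cells (Cd34) and 2 against deleted cells (Emcn and Cd34), with 46.2% and 39.6% of all genes left called. The median difference was -0.61 in both comparisons, the value of Esam. The calls of Pecam1 and Eng were lost in both and that of Emcn against wild-type cells, because these genes were left out. Of 153 values of single markers under the 7 alternatives other than folds and left-out values, 143 moved by under 1.5-fold and 10 by more, and no called marker changed sign. Part of the 143 could not move. Dropping the floor or setting it at the 75th percentile only filters genes, and the mean of probe sets changes nothing for markers with 1 probe set. The tally is therefore no measure of stability. Signal near the floor limits Tek, Cdh5 and the ductal levels of Emcn, Pecam1 and Eng.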
